A study of Homo sapiens with 6 samples.

Results

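Ezrin (EZR), radixin (RDX), moesin (MSN) and merlin (NF2) were followed across HCT116 cells with and without a knockdown of PNO1. Their probe sets were all those to which the array's gene table gives the single symbol EZR, RDX, MSN or NF2, which gave 4 of the 18132 genes measured and 23 of the 49395 probe sets: 3 for MSN, 5 for EZR, 8 for RDX and 7 for NF2. The group was chosen by the intensities of MSN, which were much lower in the knockdown on these arrays, so the difference of MSN is described below without a test. EZR, RDX and NF2 were included as its relatives, and their differences were tested.

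HCT116 is a human colorectal cancer cell line. One group, sh-PNO1, was transduced with a lentivirus for a hairpin (shRNA) that targets PNO1, a factor of small ribosomal subunit maturation, and the other, sh-Ctrl, a lentivirus with a control shRNA. All cells were collected 72 h after transduction, and each of the 3 samples of a group was hybridised to its own Affymetrix array. Neither the hairpin sequences nor the number of hairpins against PNO1 is stated in the labels. The labels also leave unsaid whether replicates were separate cultures, so the p-values reflect the spread among these 6 arrays, which could be technical.

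Ezrin, radixin and moesin form the ERM family. Their amino-terminal FERM domain binds the tails of membrane proteins and their carboxy-terminal tail binds filamentous actin, so that they fasten the actin cortex to the plasma membrane in microvilli, ruffles and uropods. A folded, inactive form opens when it meets phosphoinositides and is phosphorylated on a conserved threonine near the carboxy terminus. Ezrin is the ERM protein that intestinal epithelium is best known for, whereas moesin is prominent in leukocytes and endothelium. Merlin has the same FERM fold but acts as a tumour suppressor that restrains growth at cell contacts and feeds into the Hippo kinases. The arrays measured transcripts only, and neither protein nor phosphorylation was measured.

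PNO1 was checked first. Its brightest probe set had intensities of 105, 108 and 105 in the 3 sh-PNO1 samples, against 535, 535 and 532 in the sh-Ctrl samples. The knockdown samples thus kept 19.8% of the control signal on this probe set, and 28.7% and 29.1% on the other 2 (log2 difference of the brightest −2.33 ± 0.04 SE, limma adjusted p = 3.32e-07). An exact two-sided permutation test gave p = 0.1, the smallest value that 3 samples against 3 allow. The cells carried the markers of the labelled type: the 10 colorectal epithelial markers, EPCAM and the keratins KRT8, KRT18 and KRT19 among them, summed to 10172 to 10620.0 in sh-PNO1 and 9567 to 9946 in sh-Ctrl, although CLDN3 and CDX1 were dim; of the 10, CDH1 (0.31) and KRT19 (0.37) rose and ESRP1 fell (−0.34, all log2 differences). The 4 leukocyte, 5 fibroblast and 5 endothelial markers measured were dim, with no gene above a mean intensity of 36.6 over the 6 arrays and PTPRC, the pan-leukocyte marker, at 3.65 in sh-PNO1 and 3.79 in sh-Ctrl; TIE1 was the 1 of these 14 that passed (0.26, limma adjusted p = 0.0499). Their sums were 69.0 to 73.4 against 67.2 to 69.0 for leukocytes, 38.7 to 42.1 against 39.1 to 40.7 for fibroblasts and 116 to 120.4 against 102 to 113 for endothelium, sh-PNO1 against sh-Ctrl. The part of these markers in the results was not tested. The sh-PNO1 replicate 2 array stood apart in the gap between the 3' and 5' ends of ACTB, a sign of RNA quality, with a log2 gap of 2.25, whereas the gap was 1.73 to 1.87 elsewhere. The same gap of GAPDH differed little, at −0.08 on that array and −0.06 to −0.01 elsewhere. Without that array the log2 difference of the brightest MSN probe set was −1.86, against −1.83 with it, and the calls it changed among the other members are given with them below.

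Moesin was the member with by far the widest gap between the groups, and it was seen on both of its bright probe sets. On the brighter one, 11715717_s_at, the 3 sh-PNO1 samples had intensities of 119.7, 128 and 121, against 440.5, 438 and 429.8 in the 3 sh-Ctrl samples. On the second, 11715716_at, they were 60.4, 61.7 and 57.1 in sh-PNO1 and 241, 237 and 227 in sh-Ctrl. On each of these every knockdown sample lay far below every control sample, and the replicates of a group lay close together.

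As group means, 11715717_s_at stood at 123 ± 4.25 in sh-PNO1 and 436 ± 5.53 in sh-Ctrl (SD, n = 3 each), so that 28.2% of the control signal remained, 3.55-fold lower. Probe set 11715716_at stood at 59.7 ± 2.38 in sh-PNO1 and 235 ± 7.22 in sh-Ctrl (SD, n = 3 each), which left 25.4%, 3.94-fold lower. The log2 differences were −1.83 ± 0.04 SE and −1.98 ± 0.05 SE. These values led to the choice of MSN and are given as a description. With each gene represented by its brightest probe set, MSN had the 7th lowest log2 difference of 18132 genes. Only 0.734% of these genes both passed an adjusted p of 0.05 and were at least 2-fold lower in sh-PNO1. In bulk RNA, fewer cells that express a gene and less of its RNA per cell cannot be told apart.

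The third MSN probe set, 11749374_a_at, was dim and did not separate the groups. It read 17.6, 18.1 and 16.5 in sh-PNO1, against 17.4, 18.6 and 19.3 in sh-Ctrl, with a log2 difference of −0.08 ± 0.06 SE. The suffixes _s_at and _x_at mark probe sets that can match more than 1 transcript, and 11715716_at carries neither. The gene table ties 11749374_a_at to another sequence record than the bright pair, which share a single record. Of the 23 background probe sets of the array, which carry no human target and differ in GC content, 15 were dimmer than this probe set and 22 were dimmer than the higher group of each bright one.

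**Figure D1:**
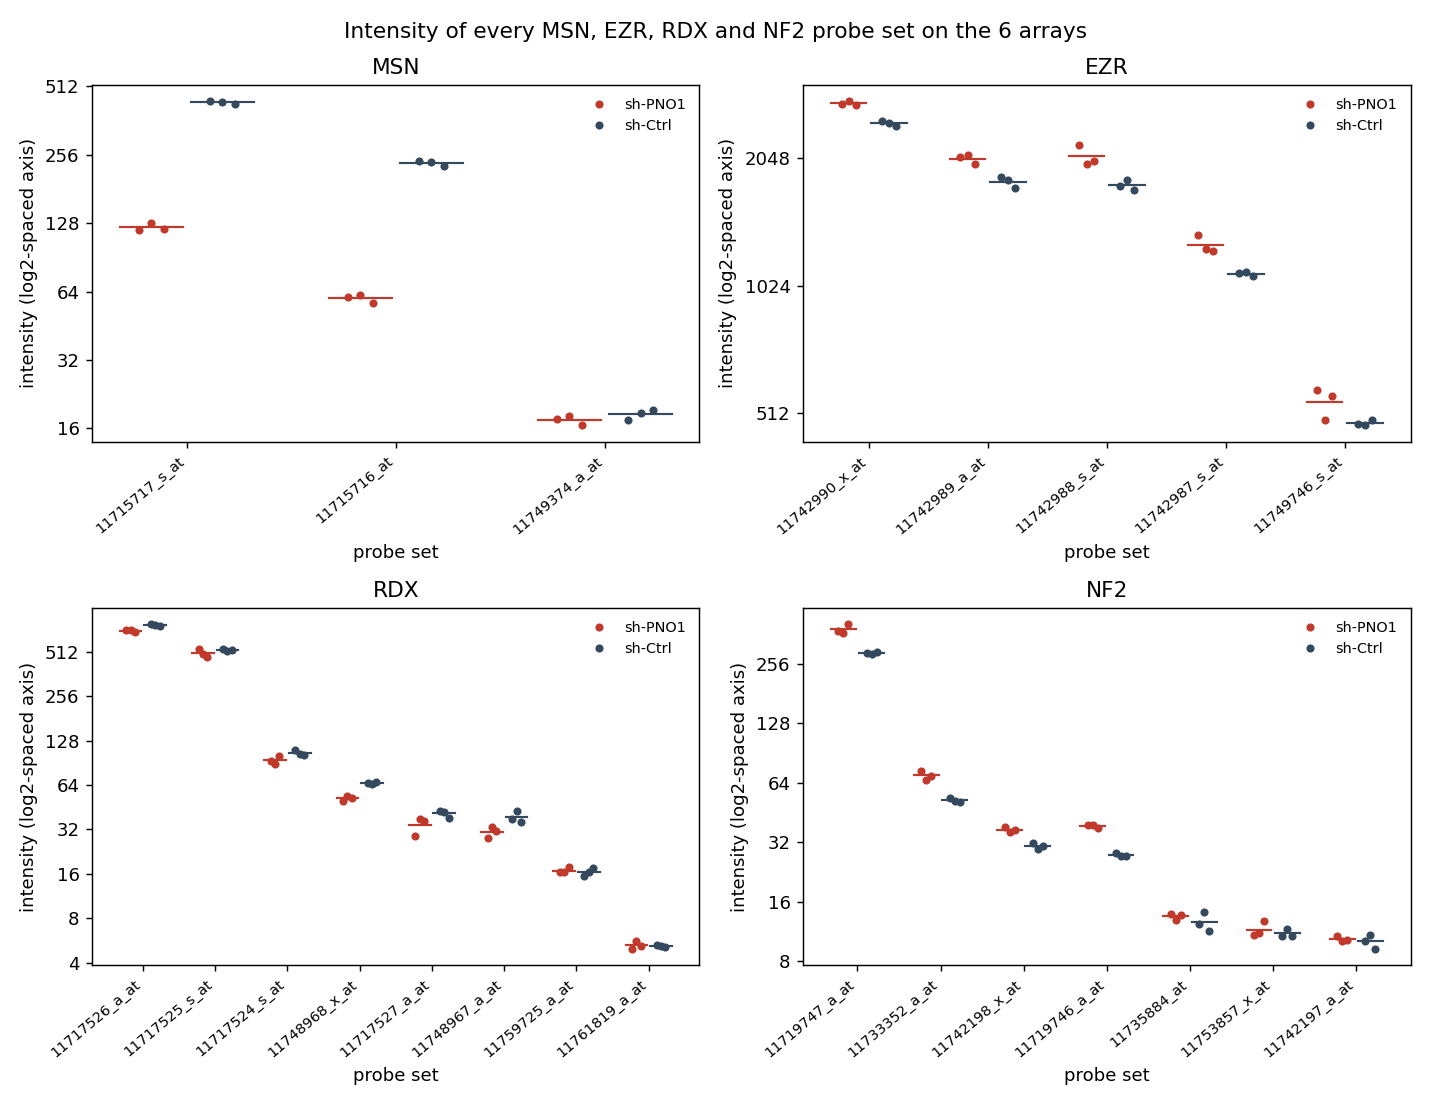
Intensity of each probe set on a log2-spaced axis, with sh-PNO1 (red) left of sh-Ctrl (dark blue), 3 arrays per group as points and the group mean as a line. The bright MSN pair is far lower in sh-PNO1 (means 123 and 59.7 against 436 and 235), all 5 EZR probe sets and the 4 brightest NF2 probe sets are higher, and RDX is slightly lower on most of its probe sets.

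Ezrin, the FERM protein of epithelial microvilli, was a little higher after PNO1 knockdown on each of its 5 probe sets. The brightest, 11742990_x_at, read 2747, 2791 and 2729.9 in sh-PNO1, against 2512, 2476 and 2442 in sh-Ctrl. Probe set 11742987_s_at, which had the smallest adjusted p of the 5, read 1352, 1252 and 1236 in sh-PNO1 and 1095, 1105 and 1079 in sh-Ctrl. In both cases the lowest knockdown sample was above the highest control sample.

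The group means of 11742990_x_at were 2756 ± 31.5 in sh-PNO1 and 2477 ± 35.1 in sh-Ctrl (SD, n = 3 each), a log2 difference of 0.15 ± 0.04 SE (limma adjusted p = 0.0241). Those of 11742987_s_at were 1280.0 ± 63.0 in sh-PNO1 and 1093 ± 13.0 in sh-Ctrl (SD, n = 3 each), a log2 difference of 0.23 ± 0.05 SE (limma adjusted p = 0.0102). Of the 5 EZR probe sets 4 rose in limma. The dimmest, 11749746_s_at, did not pass (0.16 ± 0.06 SE, limma adjusted p = 0.0979): its sh-PNO1 samples read 581, 494 and 561, against 483, 479 and 493 in sh-Ctrl, so that replicate 2 of the knockdown almost touched the controls. The 5 log2 differences spanned only 0.15 to 0.23, a gap of 0.07, smaller than in most genes with several probe sets.

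The ezrin increase was small enough for some calls to depend on 1 array. At a threshold of 0.01, with the fit unchanged, none of the 5 passed. At the threshold of 0.05 only 11742987_s_at passed in all settings in which it was fitted. The calls of the other 3 were lost when single arrays were dropped (adjusted p up to 0.067): 11742990_x_at without sh-Ctrl replicate 2, sh-Ctrl replicate 3 or sh-PNO1 replicate 2 (also with quantile normalisation repeated), 11742989_a_at without sh-Ctrl replicate 3 or sh-PNO1 replicate 2, and 11742988_s_at without sh-Ctrl replicate 1 or 3. Without sh-PNO1 replicate 2 the dimmest, 11749746_s_at, passed instead (0.23, adjusted p = 0.0144; 0.0144 to 0.252 over its settings). The log2 difference of each of the 5 stayed above 0 throughout, with a lowest value of 0.12. Probe sets 11742990_x_at and 11742989_a_at were designed from a single sequence record and are not independent readings. Of the EZR probe sets that passed, only 11742989_a_at carries neither the suffix _s_at nor _x_at.

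Radixin, the ERM member first known from cell junctions and later from stereocilia and liver canaliculi, was slightly lower on 6 of its 8 probe sets, but 2 of the 8 passed. The brightest, 11717526_a_at, read 713, 722 and 694 in sh-PNO1, against 784, 776 and 762 in sh-Ctrl. The groups did not overlap, yet the log2 difference of −0.13 ± 0.04 SE missed the threshold (limma adjusted p = 0.0598, 95% interval −0.22 to −0.03). The next brightest, 11717525_s_at, overlapped between the groups, at 534, 493 and 471 in sh-PNO1 and 532, 519 and 524 in sh-Ctrl (−0.07 ± 0.05 SE, limma adjusted p = 0.371). Probe sets 11717524_s_at (−0.16 ± 0.06 SE, limma adjusted p = 0.0942) and 11717527_a_at (−0.27 ± 0.10 SE, limma adjusted p = 0.0808) did not overlap between the groups but did not pass. The former passed without sh-PNO1 replicate 3 (limma adjusted p = 0.0453).

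The 2 radixin probe sets that fell were of middle brightness and share a sequence record. Probe set 11748968_x_at read 50.2, 54.3 and 51.9 in sh-PNO1, against 66.6, 65.4 and 66.8 in sh-Ctrl, a log2 difference of −0.35 ± 0.05 SE (limma adjusted p = 0.000919). Probe set 11748967_a_at read 28.0, 33.1 and 31.3 in sh-PNO1, against 37.8, 42.4 and 36.1 in sh-Ctrl (−0.33 ± 0.08 SE, limma adjusted p = 0.0172). The knockdown samples lay below the control samples on both.

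The first of these calls, on a probe set that can match more than 1 transcript (_x_at), held with any single array left out. The second was lost without sh-Ctrl replicate 1, sh-Ctrl replicate 2, sh-PNO1 replicate 1 or sh-PNO1 replicate 3 (adjusted p up to 0.0621). The brightest radixin probe set, by contrast, gained a call as lower in 4 of 14 other settings, namely a robust prior with a mean-variance trend, repeated quantile normalisation, an added constant of 16 and the removal of the dimmest 30% of probe sets (adjusted p 0.0072 to 0.141 over the 14). The dimmest 2 radixin probe sets stood at 0.03 and 0.02 on the log2 scale, and 15 and 12 of the 23 background probe sets were dimmer than they were.

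Merlin, the tumour suppressor of the group, was higher in the knockdown on each of its 4 brightest probe sets. The brightest, 11719747_a_at, read 375, 367 and 406 in sh-PNO1, against 290.5, 289 and 295 in sh-Ctrl. Probe set 11719746_a_at, which was dimmer but had the largest difference, read 39.0, 39.0 and 37.8 in sh-PNO1, against 28.2, 27.2 and 27.3 in sh-Ctrl. No knockdown sample came near the control range on either.

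The means of 11719747_a_at were 383 ± 20.5 in sh-PNO1 and 291 ± 3.01 in sh-Ctrl (SD, n = 3 each), a log2 difference of 0.39 ± 0.05 SE (limma adjusted p = 0.000787). Those of 11719746_a_at were 38.6 ± 0.70 in sh-PNO1 and 27.6 ± 0.56 in sh-Ctrl (SD, n = 3 each), a log2 difference of 0.49 ± 0.04 SE (limma adjusted p = 0.000109). Probe set 11733352_a_at rose by 0.42 ± 0.05 SE (limma adjusted p = 0.000588), with 74.0, 66.5 and 69.7 in sh-PNO1 and 53.5, 51.6 and 51.4 in sh-Ctrl. Probe set 11742198_x_at rose by 0.27 ± 0.05 SE (limma adjusted p = 0.00383), with 38.2, 36.0 and 37.0 in sh-PNO1 and 31.8, 29.7 and 30.8 in sh-Ctrl. These 4 calls held at the threshold of 0.05 in all settings in which the probe sets were fitted, the largest adjusted p being 0.0183.

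The other 3 merlin probe sets did not pass, with log2 differences of 0.10, 0.06 and 0.04 and limma adjusted p-values of 0.411 to 0.695. Their intensities lay between 9.28 and 14.3 on all 6 arrays, where 14 or 15 of the 23 background probe sets were dimmer. Without detection calls or their GC content it could not be judged whether they were above background. One of them, 11742197_a_at, shares its sequence record with 11742198_x_at, which rose.

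**Figure D2:**
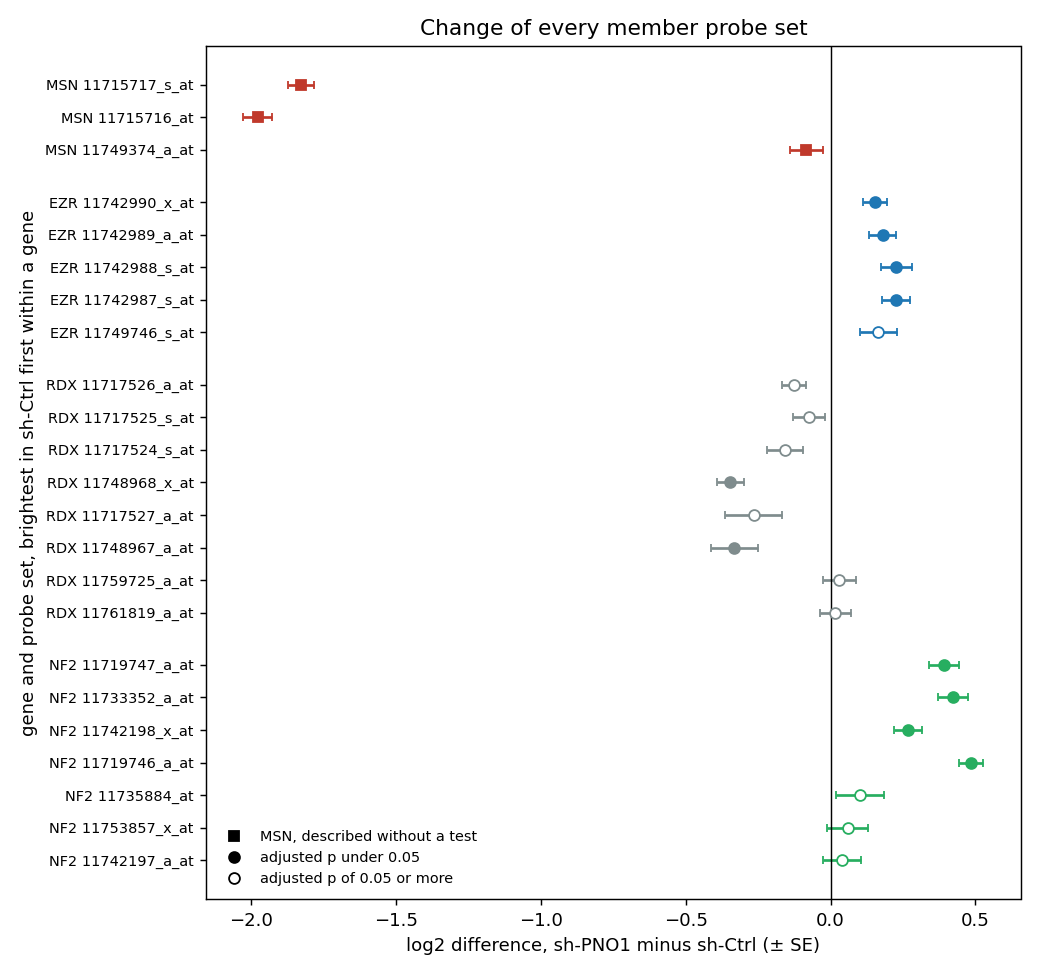
Log2 difference (sh-PNO1 minus sh-Ctrl) of each of the 23 probe sets with its standard error from limma, the brightest in sh-Ctrl first within a gene. MSN (squares) was not tested. Filled circles passed an adjusted p of 0.05, as 4 EZR, 2 RDX and 4 NF2 probe sets did.

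Of the 20 EZR, RDX and NF2 probe sets 8 rose and 2 fell, and in 14 the sh-PNO1 samples did not overlap with the sh-Ctrl samples. Over all 49293 probe sets tested 28.0% passed, 14.8% higher and 13.2% lower, and in 40.2% the groups did not overlap. The median log2 difference was 0.08 over the 20 and 0.01 over all probe sets. The probe sets of 1 gene are not independent readings, and these counts come from 3 genes. The calls were upward for merlin (4 of 7 probe sets) and ezrin (4 of 5) and downward for radixin (2 of 8). The radixin share was near that of all probe sets, and its 2 calls share a sequence record. The bright MSN pair differed by far more than any of the 20, whose sizes did not exceed 0.49. Levels were not compared between the 4 genes, since the brightness of a probe set also depends on its probes.

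**Figure D3:**
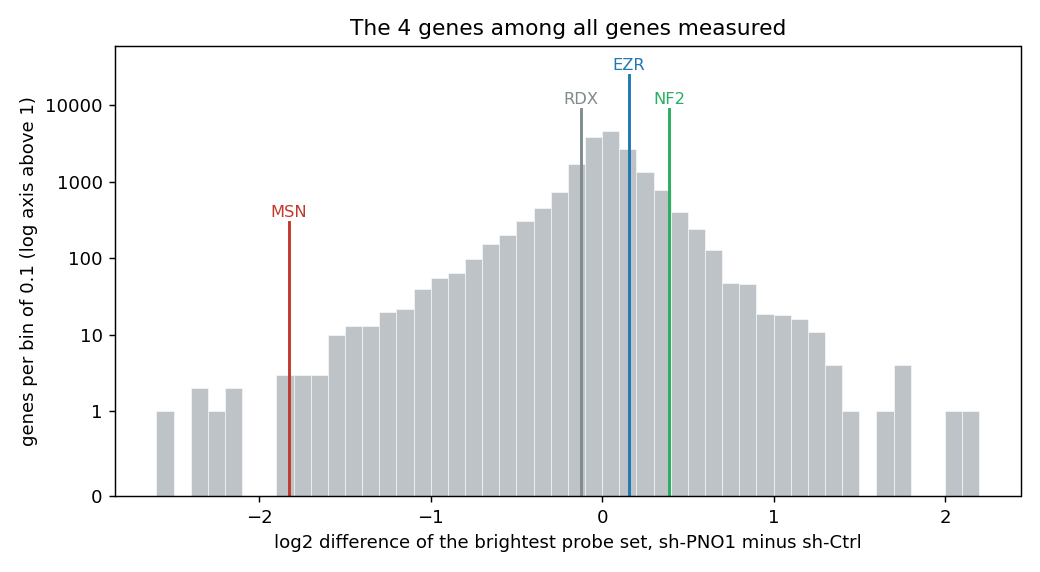
Number of genes (log axis above 1) by log2 difference of the brightest probe set, in bins of 0.1, for all 18132 genes. MSN at −1.83 lies in the sparse left tail, while RDX at −0.13 and EZR at 0.15 lie within the bulk of the distribution. NF2 at 0.39 lies toward its upper end, at rank 17151 from the lowest.

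The genes whose profile over the 6 arrays was most like that of the brightest MSN probe set were WSB2, LSM14A, MTMR2, TBC1D8B and TWSG1. Likeness was the root mean square difference of log2 values, each centred on its own mean, which was 0.06 for WSB2, 0.07 for LSM14A and MTMR2, 0.08 for TBC1D8B and 0.10 for TWSG1. WSB2 read 131 in sh-PNO1 and 444 in sh-Ctrl on average, and TWSG1 77.9 in sh-PNO1 and 244 in sh-Ctrl. With 2 groups this measure mainly picks genes of a similar log2 difference, here −1.82 to −1.65. For EZR the same rule gave MRPS23, HMBOX1, MFSD1, RRP36 and DHX33, each at 0.01, and for NF2 it gave YARS2, STX8, RRAGD, TIMM44 and DLX4, at 0.02 to 0.03.

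The chromosomal neighbours of the 4 genes were read as well. The 3 measured genes on either side of each were taken in the order of assembly GRCh38.p14, a choice made after the members' values were seen. Around MSN on chromosome X, none of the 6 neighbours passed as lower. ZC4H2 (0.38, limma adjusted p = 0.00791) and LAS1L, a factor of large ribosomal subunit maturation (0.39, limma adjusted p = 0.000687), rose. ZC3H12B, VSIG4, HEPH and EDA2R did not pass, at 0.03 to 0.09. Their sh-Ctrl means were 4.59, 7.41, 9.78 and 7.12, too dim to be judged above background, so a fall could hardly show in them. Beside EZR, TMEM181 fell (−0.51, limma adjusted p = 0.000106) and the other 5 did not pass. Beside RDX, DDX10 (0.24) and FDX1 (0.34) rose and the other 4 did not pass. Beside NF2, THOC5 rose (0.26), ZMAT5 fell (−0.65) and the other 4 did not pass. Calls of this kind were common, since 31.6% of all 18132 genes passed, 18.4% higher and 13.2% lower. Nothing particular to these places on the chromosomes was tested.

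Among the membrane proteins that ERM FERM domains bind, and the PDZ scaffolds that tie them together, 6 of 19 genes measured rose and 1 fell, with a median log2 difference of 0.10. Over all 18132 genes, each by its brightest probe set, 31.6% passed, 18.4% higher and 13.2% lower, with a median of 0.03. The gene that fell was CD44, the hyaluronan receptor and a classical ERM partner, with 786 in sh-PNO1 and 928 in sh-Ctrl (−0.24 ± 0.05 SE, limma adjusted p = 0.00692, 7 of 10 probe sets). NHERF1, the scaffold that binds ezrin in epithelial microvilli, rose to 434 in sh-PNO1, against 375 in sh-Ctrl (0.21 ± 0.05 SE, limma adjusted p = 0.0116, both probe sets). Podocalyxin, PODXL, a sialomucin linked to ezrin through such scaffolds, rose by 0.31 on 2 of 3 probe sets, and the adhesion protein L1CAM by 0.31 on 1 of 2 (0.12 as the mean of both). The sodium-proton exchanger gene SLC9A3 rose by 0.36 at 11.3 in sh-PNO1 and 8.77 in sh-Ctrl, too dim to be judged above background, and lost its call without replicate 1 or 2 of either group (adjusted p up to 0.0918). CLIC1, a chloride channel protein and the brightest that did not pass, stood at −0.07. The list's count of 7 fell to 4 without sh-Ctrl replicate 1, sh-Ctrl replicate 2 or sh-PNO1 replicate 1. Over all probe sets the count of 13791 fell as well, to between 10834 and 11888, with single arrays left out.

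Among the kinases, lipid kinases, phosphatases and upstream switches that set ERM phosphorylation, 3 of 26 genes rose and 5 fell, with a median of −0.02. Thus 30.8% passed, near the 31.6% of all genes. SLK, a kinase that phosphorylates the carboxy-terminal threonine of ERM proteins, fell by 0.45 on the log2 scale, with 134 in sh-PNO1 and 183 in sh-Ctrl (limma adjusted p = 0.000261, 1 of 3 probe sets; −0.19 as their mean). ROCK2, a kinase that acts on myosin phosphatase, fell to 139 in sh-PNO1, against 182 in sh-Ctrl (−0.39 ± 0.05 SE, limma adjusted p = 0.000498, 3 of 3 probe sets). MAP4K4, another kinase of ERM proteins, stood at −0.72 on its brightest probe set, where it passed, but 3 of its 5 probe sets fell and 2 rose, and their mean stood at −0.34. The GTPase gene CDC42 fell by 1.09 on its brightest probe set, while none of the other 8 passed and they ranged up to 0.19; the mean of all 9 stood at −0.16. PRKCA, protein kinase C alpha, rose by 0.70 ± 0.06 SE (limma adjusted p = 8.79e-05, 2 of 3 probe sets; 0.43 as their mean). RAC1 stood at 0.04 (limma adjusted p = 0.56), although 2 of its dimmer probe sets fell, by up to 1.05 on the log2 scale. The list's count of 8 fell to 5 without sh-Ctrl replicate 1 or sh-PNO1 replicate 3.

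Among merlin's partners and the Hippo kinase core, 9 of 26 genes rose and 5 fell, with a median of 0.11. Thus 53.8% passed, against 31.6% of all genes, dim ones included. This difference was neither tested nor matched for brightness. LATS2, a Hippo kinase that merlin recruits to the membrane, rose to 388 in sh-PNO1, against 167 in sh-Ctrl (1.21 ± 0.05 SE, limma adjusted p = 4.50e-06, 2 of 3 probe sets). The third LATS2 probe set stood at 0.003, and the mean of all 3 at 0.66. The angiomotin relative AMOTL2 rose by 0.66 ± 0.07 SE (2 of 3 probe sets; 0.33 as their mean), and CUL4B, a cullin of the ligase that merlin inhibits in the nucleus, by 0.48 ± 0.04 SE (3 of 3). TAOK3, a kinase upstream of Hippo, rose by 0.38 but lost its call without sh-Ctrl replicate 2, sh-PNO1 replicate 2 or sh-PNO1 replicate 3 (adjusted p up to 0.0716). PAK2, which phosphorylates merlin and so inactivates it, fell to 247 in sh-PNO1, against 323 in sh-Ctrl (−0.39 ± 0.04 SE, limma adjusted p = 0.000302, 4 of 6 probe sets; −0.25 as their mean). DDB1, the adaptor of the same ligase, stood at 0.11 and PPP1R14B, a phosphatase inhibitor, at 0.12, and neither passed.

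The remaining 3 lists cover relatives and neighbours of the ERM proteins at the actin cortex. In the order given below, 39.5%, 47.6% and 51.9% of their genes passed, against 31.6% of all genes. These differences were neither tested nor matched for brightness. Of 43 other FERM domain genes 10 rose and 7 fell, with a median of 0.05; FRMD5 rose by 0.61, PLEKHH2 by 0.49 (1 of 3 probe sets), TLN1, talin, by 0.46 (1 of 2), and the tyrosine phosphatases PTPN14 by 0.38 and PTPN21 by 0.36. PLEKHH2 did not pass as the mean of its probe sets (0.14, limma adjusted p = 0.068), where TLN1 stood at 0.30. TLN1 lost its call without any 1 of the 3 sh-PNO1 arrays, and PTPN14, which was dim, without sh-Ctrl replicate 1, sh-Ctrl replicate 3 or sh-PNO1 replicate 1. The count of 17 fell to 10 without sh-Ctrl replicate 1 and to 11 without sh-Ctrl replicate 2 or sh-PNO1 replicate 3, and without sh-PNO1 replicate 2 it was 6 higher and 7 lower. Of 21 microvillus and brush border genes 6 rose and 4 fell, with a median of 0.003. The actin bundlers PLS1 (−0.57, 1 of 2 probe sets, −0.32 as their mean) and FSCN1 (−0.48, 3 of 3) and the actin capper EPS8 (−0.30, 3 of 3) fell, and the myosins MYO1D (0.71, both probe sets) and MYO5B (0.46, 3 of 5, 0.23 as their mean) rose. Of 27 other cortical actin linkers and crosslinkers 7 rose and 7 fell, with a median of −0.03. ADD3, gamma-adducin of the spectrin network, fell by 0.61 on the log2 scale on 5 of 5 probe sets, while utrophin, UTRN (0.69, both probe sets), and the septin gene SEPTIN2 (0.67, 4 of 4) rose.

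**Figure D4:**
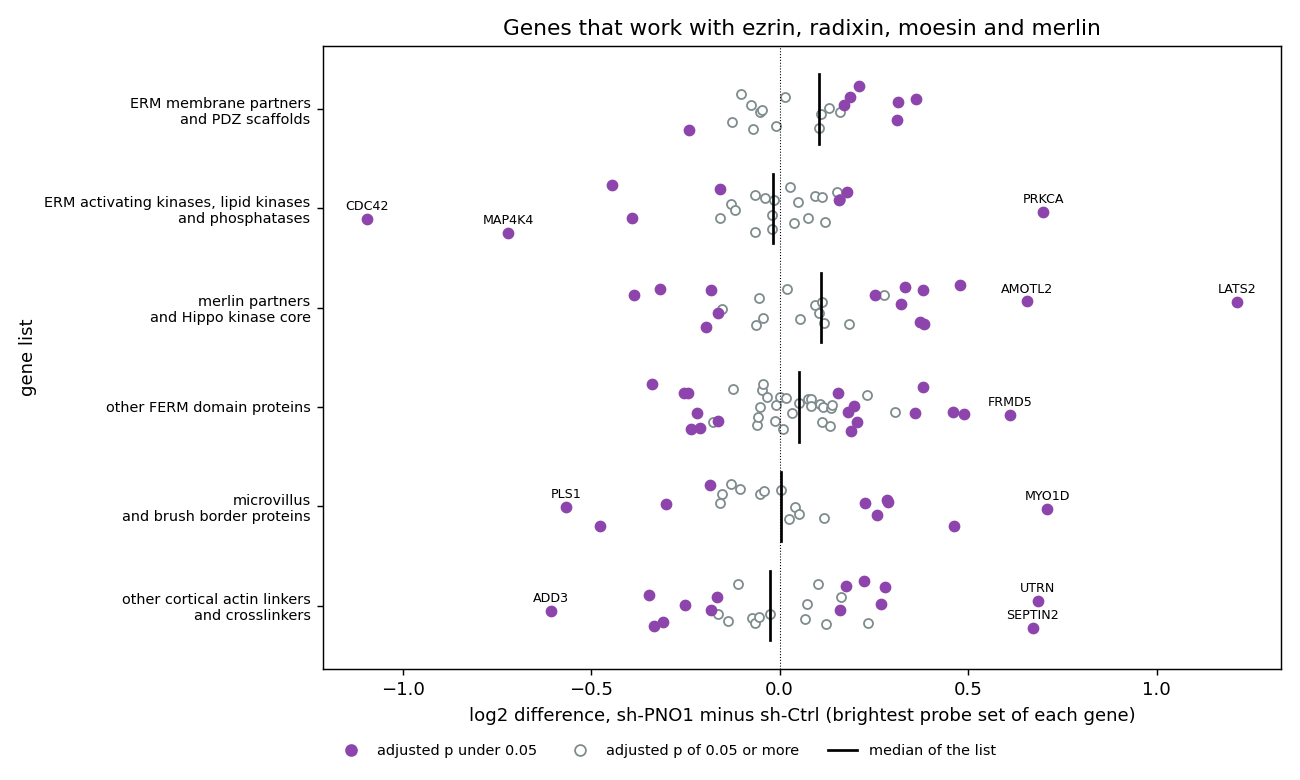
Log2 difference (sh-PNO1 minus sh-Ctrl) of each gene by its brightest probe set in the 6 lists, with filled points for an adjusted p under 0.05 and a black line at the list's median. The medians lie between −0.03 and 0.11, and the brightest probe sets of LATS2 at 1.21 and CDC42 at −1.09 stand farthest out.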

How the data were processed

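Total RNA of 6 HCT116 samples was labelled as biotinylated cRNA and hybridised to Affymetrix arrays, per the labels' protocols. The authors deposited 1 linear intensity per probe set and array, for which the submitters' processing notes name RMA, the summary and between-array normalisation usual for these arrays. Version, software and background step are not stated in those notes, and no scanner files or detection calls were used here. Median intensities of 25.6 to 25.9 on every array mean that changes are relative to the other genes; the number of arrays limits the precision.

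Here log2 was taken, 102 control probe sets were left out, and the other 49293 were fitted together in limma (version 3.58.1, R version 4.3.3; lmFit, eBayes, 2-sided, no covariate), sh-PNO1 minus sh-Ctrl, with Benjamini-Hochberg adjustment over all of them and a threshold of 0.05. As a check of the code, the fit was tried on simulated data, with changes larger than those called in EZR, RDX and NF2. Probe sets with 1 symbol in the platform's gene table (44988) were named; in lists, each gene was represented by its brightest one. No probe sequences or proteins were used here.

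Members, lists and tests were chosen with earlier results of these data known, and the lists come from textbook knowledge. Named genes are all member probe sets, PNO1, in each list up to 5 with the largest change that passed and up to 2 of the brightest that did not, and the 5 profiles most like a member; a few genes of that rule are not reported here. Same-numbered replicates did not deviate together (r of −0.04, 0.10 and −0.03). Alternatives were a replicate block, another variance prior, array weights, 2 normalisations, a constant of 16 added, removal of dim or cross-matching probe sets, a threshold of 0.01, other ways to represent a gene, and each array left out.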

Additional observations from a re-analysis of the deposited data

How the results depend on the processing

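Every member probe set that passed, and PNO1 and the bright MSN pair, kept their direction under all alternatives run; dim probe sets that never passed moved about 0. Medians near 0 turned: without the suffixed probe sets that of the regulators of ERM phosphorylation was 0.03 and that of cortical linkers 0.04, against −0.02 and −0.03, and the microvillus median (0.003) ranged from −0.03 to 0.04 over the alternatives. Of 457 recomputed values 418 kept their call or stayed within a set margin of the value reported. For counts this margin was wide: 10834 probe sets against 13791 was still taken as within it. The MSN difference of the brightest probe set was −1.70 with a constant of 16 added and −1.98 without probe sets of suffix _x_at or _s_at, where another probe set takes its place; with single arrays left out it was −1.86 to −1.81, and that of PNO1 −2.35 to −2.32. The count of EZR, RDX and NF2 probe sets that passed (10) was 5 without the suffixed probe sets, which leaves fewer to test, 5 at a threshold of 0.01, and 7 to 10 with single arrays left out. Over all probe sets (13791) it was 8711, 8666, and 10834 to 11888. At a threshold of 0.01 the gene counts were 3 for membrane partners, 5 for regulators of ERM phosphorylation, 9 for merlin partners and 5 for other FERM domain genes; the last was 11 with the probe sets of a gene averaged. With single arrays left out these 4 lists had 4 to 6, 5 to 8, 10 to 13 and 10 to 13, and microvillus and cortical linker genes 8 to 10 and 10 to 16. The replicate numbers share only a number: with a replicate block 9 of the 20 member probe sets passed, 11742990_x_at of EZR being lost (adjusted p = 0.0599), and 12964 of all. Only replicates 2 correlated best with each other. Dim probe sets cannot be told from background without detection calls.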
